A study of Mus musculus with 16 samples.

Results

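The genes described here are the 10 genes of MHC class II antigen presentation that were measured in the colon of mouse pups at weaning. They were chosen by gene name: H2-Aa, H2-Ab1 and H2-Eb1, H2-DMa, H2-DMb1 and H2-DMb2, H2-Oa and H2-Ob, Cd74, and Ciita. All 10 were on the arrays and passed the filter on dim probes, out of 36711 genes measured. The study asked how C-section delivery (CSD) acts on the gut compared with vaginal delivery (VD). RNA from the colon of 16 RjOrl:SWISS pups, an outbred stock, was hybridised on 1-colour Agilent arrays, 1 array per pup. The 8 CSD pups were taken by hysterectomy near term and raised by foster mothers that had delivered vaginally. The 8 VD pups were born vaginally and their litters were exchanged between mothers, so that pups of both groups grew up with a mother other than their own. Animals were housed under SPF conditions, and beside delivery mode and fostering no treatment that differs between the groups is given. The CSD pups came from mothers 3 and 4 (4 pups each, with both litters split into 2 of either sex). Those of the VD group came from mother 5 (5 pups, 2 females and 3 males) and mother 6 (3 males). Delivery mode varied only between litters, with 2 litters per mode, so a litter difference and a difference of delivery mode cannot be fully told apart. Between 58.7% and 64.9% of the spots of an array lay well above background, 0 spots were saturated, and each slide held 4 CSD and 4 VD pups. The 12 colon epithelium markers were well above background on every array.

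MHC class II molecules sit on the surface of dendritic cells, B cells and macrophages and show peptides from engulfed material to helper T cells. An alpha and a beta chain form the molecule (H2-Aa with H2-Ab1 for the A isotype, H2-Eb1 as the beta chain of the E isotype), and the invariant chain Cd74 escorts it to the endosome and blocks its groove. H2-DMa pairs with H2-DMb1 or H2-DMb2 to remove the remnant of the invariant chain and exchange peptides, while H2-Oa and H2-Ob form an inhibitor of that exchange that is best known from B cells. Ciita is a transactivator of class II genes, and it acts through proteins that sit on the X and Y boxes of the promoters. In the gut, class II is carried by cells of the lamina propria and the lymphoid follicles, and by the epithelium when interferon-gamma is present.

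The promoters are shown because the members are known to share an enhancer module. RefSeq promoters (GRCm38.p6, 250 bases before to 50 after each start) were at hand for 7 of the 10 genes, as 8 starts, and all of these lie on chromosome 17. On both strands, the Y box core ATTGG was found in 7 of the 8 promoters, against 37.4% of 32851 promoters of the same length. Its longer form CTGATTGG, which contains the core, was found in 3 of the 8, against 4.1%. The X box core TAGNNAC was found in 3 of the 8, against 30.7%, and both cores together in 3 of the 8, against 11.8%. In the stretches below, written 5′ to 3′ on the strand of the gene, capitals mark the X and Y box cores.
H2-Aa: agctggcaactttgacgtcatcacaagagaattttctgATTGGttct
H2-Eb1: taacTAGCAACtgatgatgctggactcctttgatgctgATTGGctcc
H2-DMb1: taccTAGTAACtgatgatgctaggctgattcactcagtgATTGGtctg
H2-DMb2: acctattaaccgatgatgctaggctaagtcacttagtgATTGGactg
H2-Oa: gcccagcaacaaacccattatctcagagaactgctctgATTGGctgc
H2-Ob: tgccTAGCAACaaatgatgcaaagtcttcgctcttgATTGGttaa
The H2-Eb1 stretch is chr17:34305770-34305816 on the plus strand, and the H2-DMb1 stretch is chr17:34153091-34153138 on the plus strand. The H2-Aa stretch is chr17:34287863-34287909 on the minus strand. The stretches of H2-DMb2, H2-Oa and H2-Ob are chr17:34145121-34145167, chr17:34092298-34092344 and chr17:34238812-34238856, all on the plus strand. On the strand of the gene, the first bases of the X and Y cores lay 34 bases apart in H2-Eb1, 35 in H2-DMb1 and 32 in H2-Ob. On the opposite strand, H2-Eb1 had a further Y core 35 bases before the start and H2-DMb1 a further X core 160 bases before it. In H2-Aa the Y core began 48 bases before the start and in H2-Oa 43 bases before it. H2-DMa had no match at its first start and a Y core 198 bases before its second. These matches describe the letters only, and a promoter without a match says only that these letters were not in the window.

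**Figure D1:**
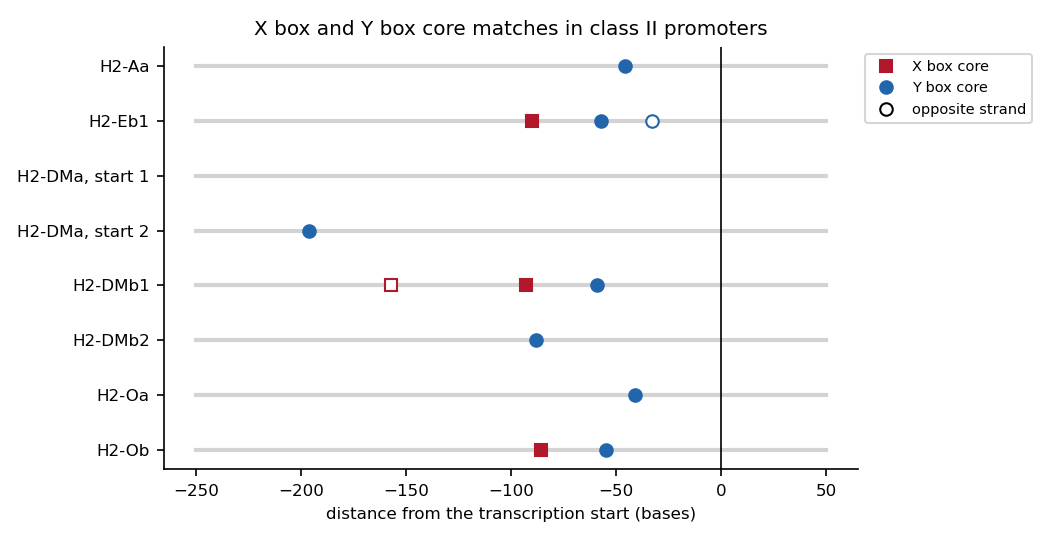
Matches to the X box core (red squares) and the Y box core (blue circles) along 8 promoters of 7 class II genes, as distance from the transcription start in bases; grey bars are the stretches searched and open symbols are matches on the opposite strand. On the strand of the gene, the X and Y cores stand 32 to 35 bases apart in H2-Eb1, H2-DMb1 and H2-Ob.

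Between delivery modes, 9 of the 10 class II genes were fitted lower in CSD pups, the exception being H2-Eb1, but none passed the test across all genes in limma (0 of 10 at an adjusted p under 0.05). In the same fit 460 of 36711 genes were called (1.25%), 201 of them lower in CSD pups (0.548%), and 48.3% of all genes had a difference below 0. On a simulated data set without litter effects, the delivery fit called more false genes than its threshold allows, so its calls need care. The 460 became 145 without pup VD 4, 180 without CSD 7, 222 without CSD 9, 238 without CSD 3, 243 without VD 5, 257 without CSD 6, 271 without CSD 5, 278 without CSD 1, 300 without CSD 2 and 304 without VD 11. Without any other pup the count ran from 308 (VD 10) to 617 (VD 7). With litter means as samples, 0 genes were called. The median log2 difference of the 10 genes was -0.29, against 0.00 over all genes. With an unadjusted p under 0.05, 7 of the 10 were lower in CSD pups, a state found in 7.09% of all genes. In 8 of the 10 both CSD litter means lay under both VD litter means, which held for 20.3% of all genes. The 8 CSD and the 8 VD pups overlapped for every one of the 10, while 0.49% of all genes had no overlap. Without the 3 pups of mother 6, 4 members passed the threshold (H2-Ab1, H2-Oa, Cd74 and Ciita), in a fit that called 2265 genes in all. Without pup VD 7 alone, Cd74 passed it (adjusted p = 0.0475 in limma). The count of 7 with an unadjusted p under 0.05 was 1 without the litter of mother 5, 2 among the males, 3 within either slide, and 4 without pup CSD 8 or without pup VD 4. The same 9 genes were fitted lower under all 38 alternative settings tried.

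**Figure D2:**
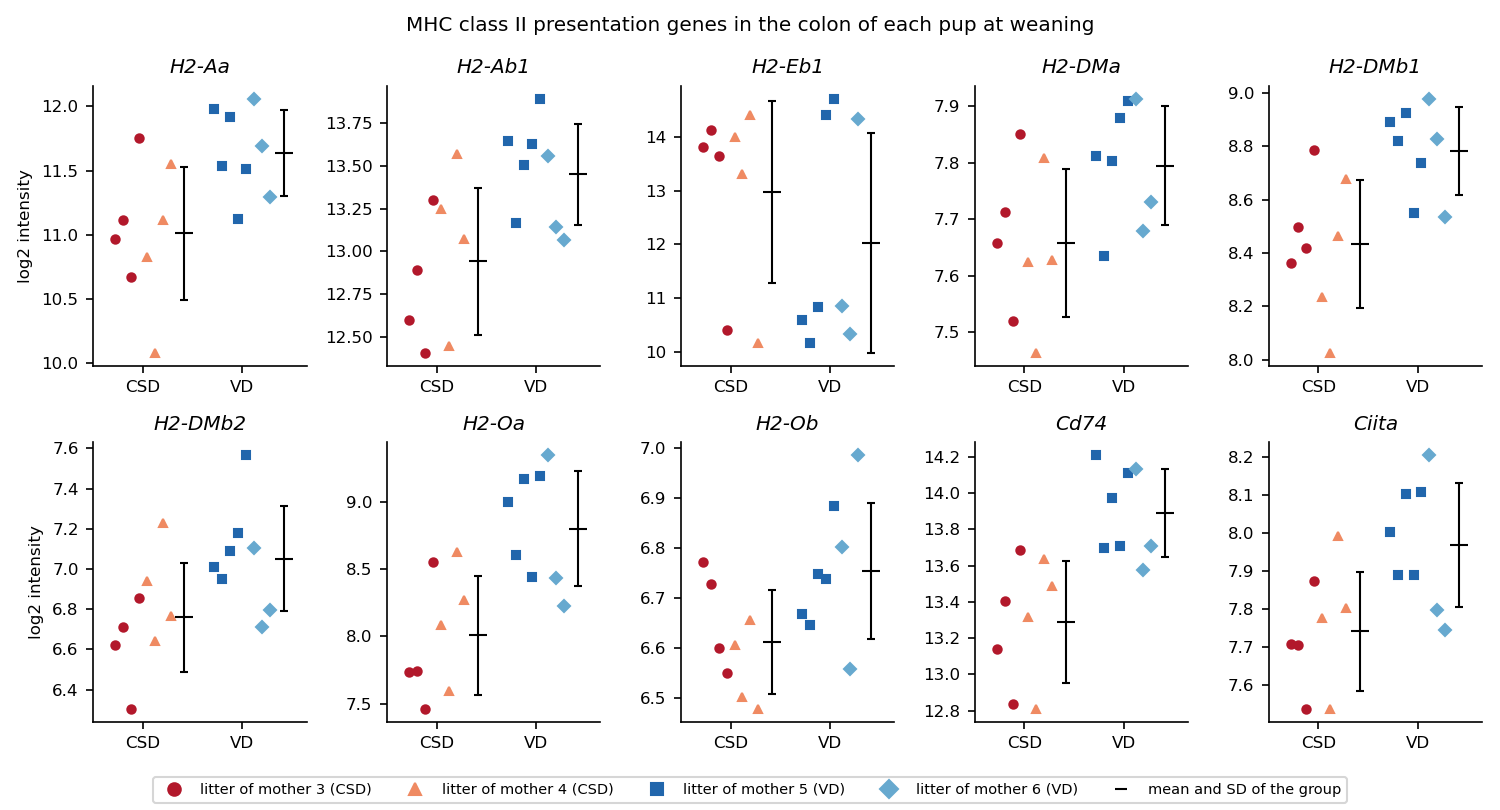
Log2 intensity (vertical axis) of each of the 10 genes in every pup, with CSD and VD pups side by side; colour and shape give the litter and the bar the mean and SD of the 8 pups. Groups overlap in all 10 panels, and H2-Eb1 alone is spread over 2 separate ranges, 10.16 to 10.84 and 13.30 to 14.71.

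Cd74, the invariant chain and the member with the smallest p, ran from 12.81 through a median of 13.36 to 13.69 in CSD pups and from 13.58 through 13.84 to 14.21 in VD pups (log2 intensity). Of the 8 CSD pups 6 lay below every VD pup, and 7 of the 8 VD pups lay above every CSD pup. The fitted difference was -0.57 ± 0.15 (SE, n = 8 and 8), an average level in CSD pups of 67.2% of that in VD pups by the fit (adjusted p = 0.0698 in limma). The exact permutation test of the group means, two-sided over 12870 assignments, gave p = 0.000932, but it takes neither litter nor sex into account. The litter means were 13.27 ± 0.36 and 13.31 ± 0.36 (SD, n = 4 each) for mothers 3 and 4, 13.94 ± 0.23 (n = 5) for mother 5 and 13.81 ± 0.29 (n = 3) for mother 6. Within slide 1 the difference was -0.54 and within slide 2 it was -0.60.

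H2-Aa, the alpha chain of the A isotype, was measured by 1 probe of 60 bases (mm9 chr17:34421285-34421344, minus strand), shown because its values are set beside those of H2-Eb1 further on.
H2-Aa probe: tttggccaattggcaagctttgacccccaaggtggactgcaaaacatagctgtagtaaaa
In CSD pups H2-Aa ran from 10.08 through a median of 11.04 to 11.75, and in VD pups from 11.12 through 11.61 to 12.06. Pup CSD 2 was the lowest and pup VD 6 the highest, and 6 CSD pups lay below every VD pup. The difference was -0.57 ± 0.21 (adjusted p = 0.206; exact permutation p = 0.0123). The 7 highest values belonged to 5 VD and 2 CSD pups that also stood apart in H2-Eb1, and the part of this uneven split in the difference was not tested. Among those 7 pups H2-Aa was 11.55 and 11.75 in the CSD pups and 11.54 to 12.06 in the VD pups, so that the groups overlapped. Among the other 9 it was 10.08 to 11.12 in 6 CSD pups and 11.12 to 11.52 in 3 VD pups. Its partner H2-Ab1 ran from 12.41 through 12.98 to 13.57 in CSD pups and from 13.06 through 13.53 to 13.89 in VD pups. Only 4 CSD pups lay below every VD pup. The difference was -0.45 ± 0.18 (adjusted p = 0.236; exact permutation p = 0.0180).

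H2-Ab1 was read by 4 probes, all above background on every array, and all were lower in CSD pups, with differences of -0.51 ± 0.16, -0.53 ± 0.21, -0.50 ± 0.22 and -0.29 ± 0.15. The probe with the smallest difference lies at mm9 chr17:34404357-34404416 (plus strand) and the next stretch is its sequence. Another pair of H2-Ab1 probes (mm9 chr17:34406296-34406355 and chr17:34406305-34406363) shares 51 bases with 1 mismatch, written T51C when counted from 1 at the 5′ end of the first probe, and the base that differs is in capitals.
H2-Ab1 probe: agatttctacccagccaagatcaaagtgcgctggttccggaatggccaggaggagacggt
H2-Ab1 overlapping probe 1: caaataaacgagacTcagactctg
H2-Ab1 overlapping probe 2: caaataaacgagacCcagactctg

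H2-Eb1, the beta chain of the E isotype, was the only member fitted higher in CSD pups and the only one spread over 2 separate ranges. Its only probe lies near the 3′ end of the transcript (mm9 chr17:34453075-34453134, plus strand), and its first 30 bases are given here.
H2-Eb1 probe, bases 1 to 30: ggcacttctgagccagtctgctgtcatatg
Among the CSD pups, H2-Eb1 was 10.16 in CSD 7, 10.39 in CSD 9, 13.30 in CSD 2, 13.63 in CSD 8, 13.81 in CSD 3, 13.99 in CSD 1, 14.13 in CSD 5 and 14.40 in CSD 6. Among the VD pups it was 10.16 in VD 5, 10.33 in VD 7, 10.60 in VD 4, 10.83 in VD 9, 10.84 in VD 6, 14.33 in VD 8, 14.40 in VD 10 and 14.71 in VD 11. No pup lay in the 2.46 log2 units between 10.84 and 13.30, and both ranges held pups of all 4 litters and of both delivery modes. In the upper range H2-Eb1 was 13.30 to 14.40 in 6 CSD pups and 14.33 to 14.71 in 3 VD pups. In the lower range it was 10.16 and 10.39 in 2 CSD pups and 10.16 to 10.84 in 5 VD pups. Over this uneven split, whose part was not tested, the fitted difference was 0.95 ± 0.95 (adjusted p = 0.710 in limma, exact permutation p = 0.314). The groups thus differed by no more than the spread within them. Single pups moved the fitted difference: it was 0.49 without VD 5, 0.59 without VD 4, 1.48 without CSD 9 and 1.52 without CSD 7. Among the 10 males alone the difference turned to -0.43. Class II genes are among the most polymorphic genes of the mouse. The genotypes of these outbred pups were not analysed here, and their part in the values was not tested.

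The 7 pups in the lower range of H2-Eb1 were also the 7 with the highest H2-Aa. Their H2-Aa lay between 11.54 and 12.06, while the other 9 pups lay between 10.08 and 11.52. H2-DMb1 came close to the same split, from 8.68 to 8.98 in those 7 pups and from 8.02 to 8.74 in the other 9. H2-Ab1 showed no such split, from 13.08 to 13.64 in the 7 pups and from 12.41 to 13.89 in the 9, and Cd74, H2-Oa, Ciita, H2-DMa, H2-DMb2 and H2-Ob overlapped as well. The overlapping pair of H2-Ab1 probes shown above did split along these pups: within an array, probe 1 minus probe 2 was 0.11 to 0.24 log2 units in the 7 pups and -0.17 to 0.08 in the 9. Within each range, pups with more H2-Eb1 had more of the other members. The correlation of H2-Eb1 with H2-Aa was 0.946 over the 7 pups and 0.936 over the 9, with Cd74 0.834 and 0.979, and with Ciita 0.92 and 0.909. These are descriptions over pups that share litters and slides.

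**Figure D3:**
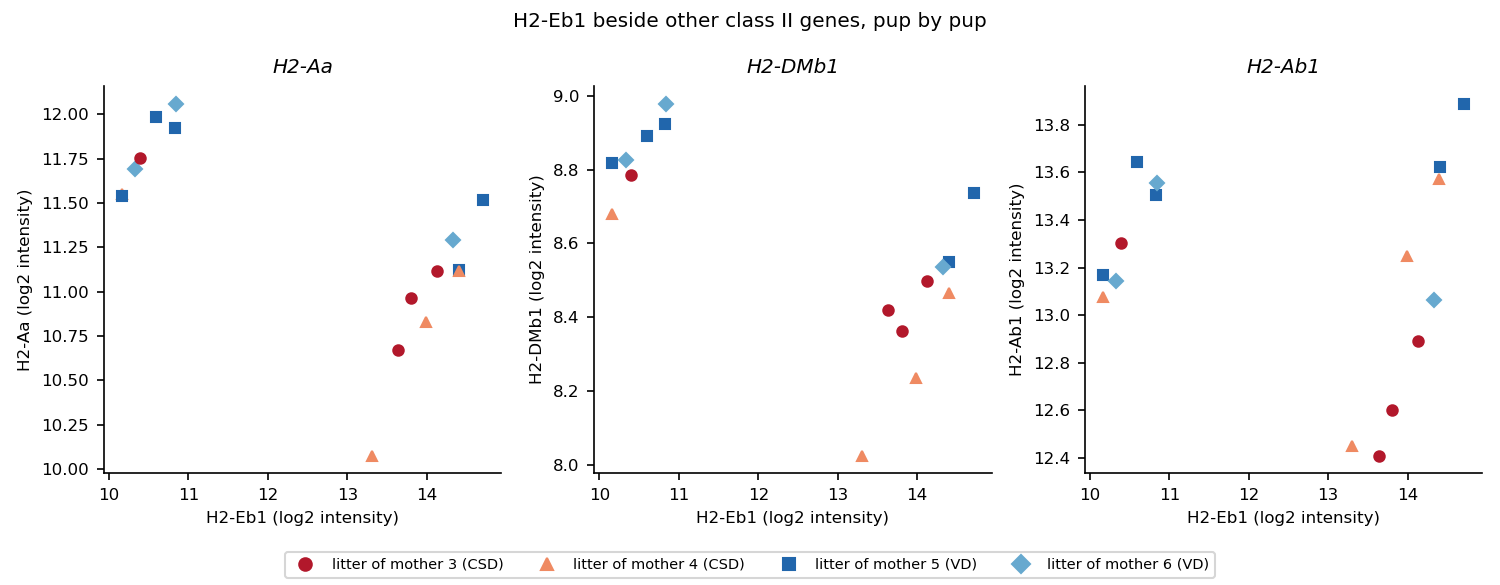
H2-Eb1 (horizontal axis, log2 intensity) against H2-Aa, H2-DMb1 and H2-Ab1 (vertical axes, log2 intensity), 1 point per pup, with colour and shape giving the litter. The 7 pups with H2-Eb1 at 10.16 to 10.84 have H2-Aa at 11.54 or more, the other 9 have it at 11.52 or less, and in both sets the points rise together.

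Of the other class II genes of the region, 2 of 5 listed were measured, and neither passed the test. H2-Eb2, a second E beta gene, had a difference of -0.28 ± 0.12 (adjusted p = 0.301). The E alpha pseudogene entry H2-Ea-ps, at 0.13 (adjusted p = 0.911), also fell into separate ranges: 7.45 in CSD 8, 7.86 in CSD 3, 8.05 in CSD 5 and 8.22 in VD 8, against 6.05 to 6.83 in the other 12 pups. Those 4 pups were all in the upper range of H2-Eb1, where 5 further pups had H2-Ea-ps at 6.05 to 6.37. In none of these 5 was it well above background, and it was so on 9 of the 16 arrays.

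The peptide exchange factor was fitted lower in CSD pups in all of its chains. H2-DMb1 ran from 8.02 through a median of 8.44 to 8.79 in CSD pups and from 8.54 through 8.82 to 8.98 in VD pups, with 6 CSD pups below every VD pup and 5 VD pups above every CSD pup. The difference was -0.31 ± 0.10 (adjusted p = 0.138; exact permutation p = 0.00497). It too was read over the uneven split of H2-Eb1, whose part was not tested. Among the 7 pups with low H2-Eb1, H2-DMb1 was 8.68 and 8.79 in the 2 CSD pups and 8.82 to 8.98 in the 5 VD pups. Among the other 9 it was 8.02 to 8.50 in 6 CSD pups and 8.54 to 8.74 in 3 VD pups. The value is an average of 2 probes, of which the bright one (mm9 chr17:34297109-34297168) differed by -0.62 ± 0.20 and the other, above background on 0 arrays, by -0.01 ± 0.03. H2-DMb2 ran from 6.30 to 7.23 in CSD pups and from 6.71 to 7.57 in VD pups, with a difference of -0.27 ± 0.13 (adjusted p = 0.372), which was -0.17 without pup CSD 8. H2-DMa, the alpha chain, ran from 7.46 to 7.85 in CSD pups and from 7.64 to 7.91 in VD pups, with a difference of -0.11 ± 0.06 (adjusted p = 0.405). Its probe above background on all arrays, which spans 564 bases of mm9 and so crosses a splice junction, differed by -0.28 ± 0.11, and the other, above background on none, by 0.05 ± 0.05. H2-DMb1 and H2-DMb2 are close paralogs, and cross-hybridisation between them was not tested.

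The inhibitor chain H2-Oa had the largest negative difference of the 10 genes. It ran from 7.46 through a median of 7.91 to 8.63 in CSD pups and from 8.23 through 8.80 to 9.35 in VD pups. All 8 CSD pups lay below the VD median, and 4 VD pups lay above every CSD pup, 3 of them from mother 5. The difference was -0.73 ± 0.21 (adjusted p = 0.103; exact permutation p = 0.00435), which corresponds to 60.4% of the VD level. H2-Ob, its partner, ran from 6.48 to 6.77 in CSD pups and from 6.56 to 6.99 in VD pups and differed by -0.14 ± 0.06 (adjusted p = 0.328; exact permutation p = 0.0347). Of its 3 probes only 1 was above background on every array, with -0.18 ± 0.15. Another, above background on 1 CSD and 6 VD arrays, had -0.20 ± 0.07 (adjusted p = 0.181 in limma). The last, above background on none, had -0.04 ± 0.05.

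Ciita, the transactivator, ran from 7.54 through a median of 7.74 to 7.99 in CSD pups and from 7.75 through 7.95 to 8.21 in VD pups. Of the CSD pups 4 lay below every VD pup, and the difference was -0.21 ± 0.08 (adjusted p = 0.235; exact permutation p = 0.0151). Its 4 probes did not move alike. The probes toward the 3′ end (mm9 chr16:10526458-10526517 and chr16:10525904-10525963) differed by -0.48 ± 0.16 and -0.38 ± 0.11, and the probes further upstream by -0.01 ± 0.07 and 0.04 ± 0.04, the latter above background on no array. Of the 56366 probes fitted in the same way, 980 were called (1.74%), among them 0 of the 20 probes of the class II genes.

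**Figure D4:**
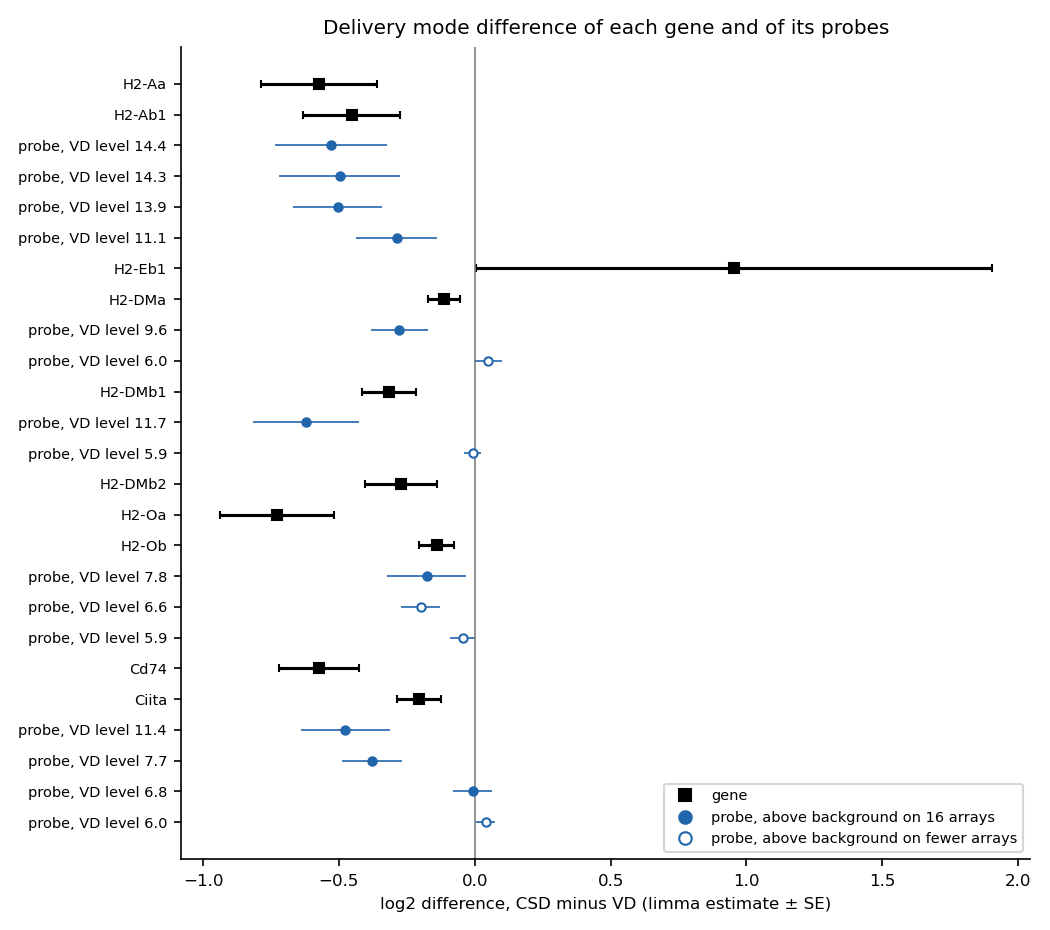
Log2 difference of CSD minus VD pups (horizontal axis, limma estimate ± SE) for each gene (black squares) and, where a gene has more than 1 probe, for each probe (blue circles, named by its mean log2 intensity in VD pups; open where it was not above background on all 16 arrays). Bright probes of H2-DMb1, H2-DMa and Ciita lie further below 0 than the averages of their genes.

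No class II gene was called between the sexes or between litters of a delivery mode. Between females and males 22 genes were called (0.0599%), 0 of them class II genes, and 1 gene was called for the delivery by sex interaction (0.00272%), again 0 of the 10. H2-Eb1 and H2-DMb1 had the smallest interaction p of the members, with interaction terms of 3.88 ± 1.72 and -0.41 ± 0.18 (adjusted p = 0.981 each in limma). All 4 CSD females lay in the upper range of H2-Eb1 and both VD females in the lower one. Between the CSD litters (mother 4 against mother 3) 32 genes were called (0.0872%) and between the VD litters (mother 6 against mother 5) 321 (0.874%), with 0 class II genes in either. The largest litter differences among the members other than H2-Eb1 were -0.42 ± 0.24 for H2-Ab1 and -0.35 ± 0.16 for H2-DMb2, both lower in the litter of mother 6 (adjusted p = 0.544 and 0.438).

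The regulators upstream of the class II genes were split between directions. Of 21 genes of the complex on the X and Y boxes and its inducers, 12 had a positive difference and 9 a negative one (median 0.01). Crebbp, a histone acetyltransferase that Ciita recruits, rose by 0.22 ± 0.05 (adjusted p = 0.0344), and it was the only one called. This call was lost in 15 of 38 alternatives, among them litter means as samples (adjusted p = 0.269), the brightest probe of the gene (0.07, adjusted p = 0.598), and the fits without pup CSD 2, CSD 3, CSD 6, CSD 7, CSD 9 or VD 4. Ifng itself was not well above background on any array. Among 15 measured genes induced by interferon-gamma, 0 were called, 11 were fitted higher and 4 lower, and their median was 0.04. Ido1, a tryptophan-degrading enzyme, had -0.42 ± 0.15 and the chemokine Cxcl10 had 0.30 (adjusted p = 0.182 and 0.437).

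Genes that prepare or use class II ligands gave 0 calls. Of 12 lysosomal processing genes 10 had a negative difference (median -0.08). The proteases Ctsd and Ctse had -0.15 ± 0.04 and -1.16 ± 0.35 (adjusted p = 0.0737 and 0.118). Of 7 measured turnover and surface partners 4 were lower, with a median of -0.03; Cd83, which holds class II at the surface, had -0.30 and March1, a ligase that removes it, 0.10 (adjusted p = 0.418 and 0.668). Of 8 co-stimulation genes 7 were lower (median -0.14), and Tnfsf9 and Pdcd1lg2, ligands on presenting cells, had -0.36 ± 0.10 and -0.26 ± 0.09 (adjusted p = 0.0919 and 0.164). Tnfsf4 and Cd70 were above background on no array. In the class I pathway, which presents peptides of the cell's own proteins, 18 of 21 measured genes were lower (median -0.10). The chaperone Pdia3, which works in the endoplasmic reticulum, rose by 0.33 ± 0.06 and was the only one called (adjusted p = 0.0195). This call was lost in 11 of 38 alternatives, among them litter means as samples (adjusted p = 0.236) and the fit without pup VD 4 (adjusted p = 0.0597).

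Markers of cells that carry class II were mostly fitted lower in CSD pups. All 14 B cell and follicle markers were fitted lower in CSD pups, 9 of them with an unadjusted p under 0.05 and 0 called (median -0.45). Their summed level was 12.56 ± 0.63 in CSD and 13.13 ± 0.44 in VD pups (log2 of summed intensity, SD, n = 8 each), and the gene with the highest intensity was Cd79b, a chain of the B cell receptor. Fcer2a, a low-affinity IgE receptor of B cells, had -0.57 ± 0.15 and Cd37, a tetraspanin, -0.61 ± 0.17 (adjusted p = 0.0750 and 0.0910). Of 12 measured macrophage markers 9 were lower, with a median of -0.16 and a summed level of 13.90 ± 0.28 against 14.18 ± 0.12. The gene with the highest intensity was Lyz2, a lysozyme, and the complement gene C1qc and the lysosomal Cd68 had -0.21 ± 0.07 and -0.26 ± 0.09 (adjusted p = 0.143 and 0.180). Of 12 dendritic cell markers 11 were lower (median -0.08), with a summed level of 13.84 ± 0.09 against 13.94 ± 0.11 and Cd24a, which epithelium also expresses, at the highest intensity. The integrin Itgax and the receptor Sirpa had -0.23 ± 0.08 and -0.12 ± 0.05 (adjusted p = 0.149 and 0.268), and Xcr1 was above background on no array.

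Further cell types were read in the same way. Of 11 T cell genes, not all particular to helper T cells, 10 were lower (median -0.22). Their summed level was 11.18 ± 0.24 against 11.51 ± 0.39, with Cd3d at the highest intensity. Icos and Lag3, receptors of activated T cells, had -0.22 ± 0.08 and -0.14 ± 0.05 (adjusted p = 0.205 and 0.227). Ctla4 and Cd40lg were above background on no array. Of 9 genes of group 3 innate lymphoid cells 7 were lower (median -0.05), with a summed level of 12.20 ± 0.36 against 12.66 ± 0.36 and Ltb at the highest intensity. Il23r had -0.16 but was above background on no array, and Gpr183, a migration receptor, had -0.35 ± 0.09 (adjusted p = 0.0656 and 0.0818). Colon epithelium markers were fitted higher in 10 of 12 genes (median 0.17), with Slc26a3, an anion exchanger, at 0.45 ± 0.13 and Epcam, an adhesion molecule, at 0.17 ± 0.07 (adjusted p = 0.113 and 0.257), while the summed level was 19.24 ± 0.16 against 19.23 ± 0.13 and Krt8 had the highest intensity. Smooth muscle markers were lower in 6 of 7 (median -0.13), with a summed level of 17.87 ± 0.21 against 18.03 ± 0.17 and Tagln at the highest intensity; Smtn and Acta2, proteins of the contractile apparatus, had -0.19 ± 0.08 and -0.17 (adjusted p = 0.275 and 0.419). None of these lists had a called gene. In tissue RNA, fewer cells of a type and less RNA per cell cannot be told apart, and the part of these cell types in the class II values was not tested.

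**Figure D5:**
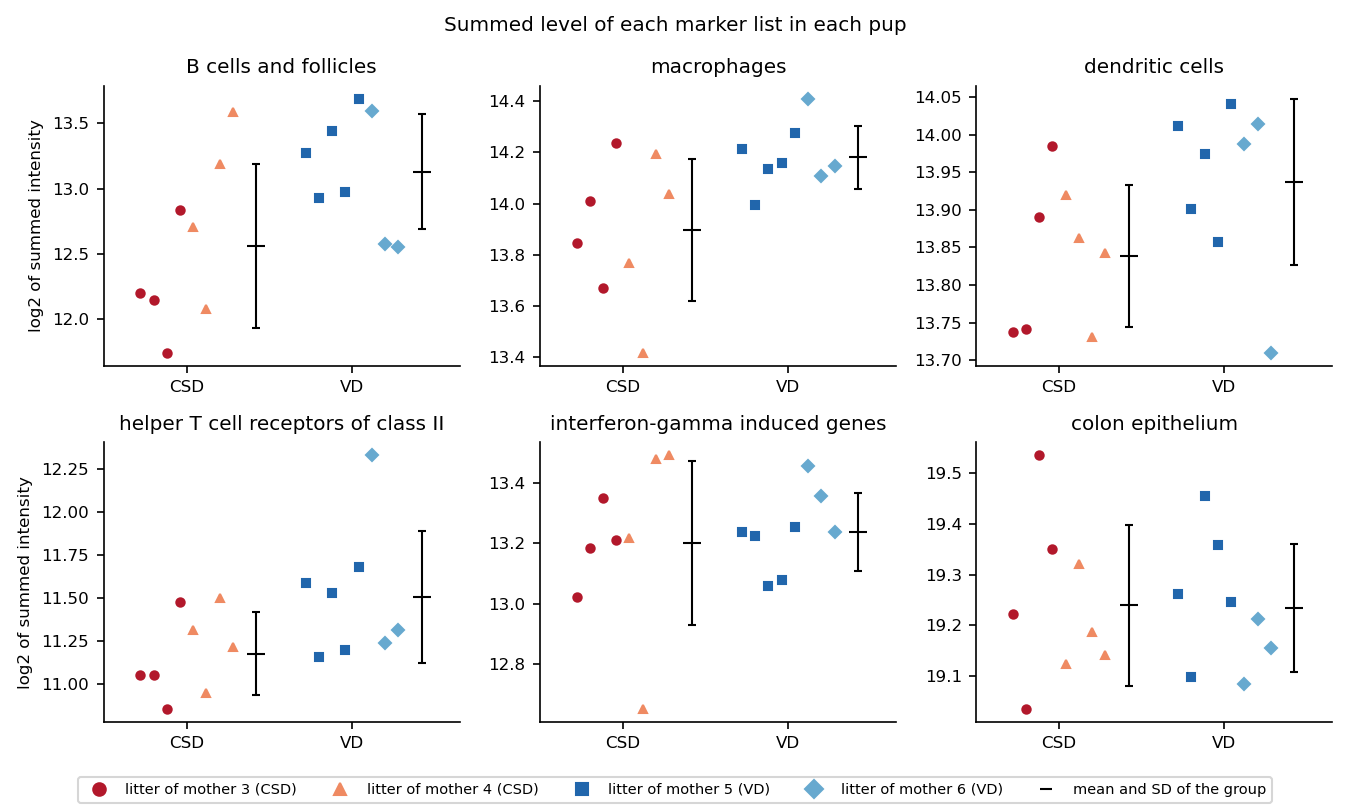
Log2 of the summed intensity (vertical axis) of 6 gene lists in each pup, CSD and VD side by side, with colour and shape giving the litter and the bar the mean and SD of 8 pups. B cell and macrophage lists are lower on average in CSD pups and overlap with VD pups, and the epithelium list has nearly equal means (19.24 and 19.23).

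Among 20548 genes above background on all 16 arrays, those whose values ran most alike with the class II genes were looked for, using the mean standardized value of H2-Aa, H2-Ab1, H2-Eb1 and Cd74 and the correlation over 16 pups after removal of delivery mode and sex. The pups share 4 litters, and the score holds H2-Eb1 with its 2 ranges, so these are descriptions. The highest was Nckap1l, an actin regulator of blood cells (r = 0.94), followed by H2-Ab1 (0.92) and Cd74 (0.906), which are part of the score, and by Slc2a6 (0.904), a sugar transporter that was itself lower in CSD pups by -0.21 (adjusted p = 0.0399), a call lost in 27 of 38 alternatives, which include the fit without any 1 pup other than VD 7, VD 8 or VD 9. H2-DMa (0.904), Pld4 (0.898), Parvg (0.891), Ncf4 (0.889), Slc9a7 (0.886), Icam1 (0.886), Plcg2 (0.88), Arhgap25 (0.875), Lyz1 (0.874), Elk3 (0.873) and Vpreb3 (0.872) completed the 15. Ncf4 belongs to the phagocyte oxidase, Icam1 is the adhesion molecule that T cells bind, and Plcg2 signals below the B cell receptor. Within the delivery modes the 15 had correlations of 0.881 to 0.977 over the 8 CSD pups and of 0.711 to 0.918 over the 8 VD pups. When H2-Eb1 was left out of the score, a choice made after its values were seen, 9 of the 15 genes were others and 6 were shared with the first list. Cd74 (0.982) then came first. The 9 others were Fli1 (0.964), Inpp5d (0.959), Lyz2 (0.955), Lcp1 (0.939), Cd52 (0.931), AI504432 (0.931), Myo1g (0.923), Hcls1 (0.919) and Sash3 (0.918). Shared beside Cd74 were Ncf4 (0.945), Nckap1l (0.937), Lyz1 (0.934), Plcg2 (0.921) and Arhgap25 (0.918).

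Among the members other than H2-Eb1, H2-Aa and H2-DMb1, Ciita and H2-Oa ran most alike (r = 0.964 after removal of delivery mode and sex, 16 pups). H2-Ab1 and H2-DMb2 had 0.898 and Cd74 and H2-Oa 0.885, while H2-Ob stayed between -0.067 and 0.367 with the other 6. The H2-Ob value averages 3 probes, not all of them above background on every array. With H2-Eb1, H2-Ob had 0.851 over the 7 pups in the lower range of H2-Eb1 and 0.71 over the 9 in the upper one. H2-Aa and H2-DMb1 split wholly or nearly along the 2 ranges of H2-Eb1, so their correlations are given within each range, as measured. H2-Aa with its partner H2-Ab1 had 0.945 over the 7 pups and 0.73 over the 9. H2-DMb1 with H2-DMb2 had 0.817 and 0.553, and with H2-Aa 0.863 and 0.929.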

How the data were processed

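The authors deposited the scanner output of 16 arrays, 1 per pup, and a gene matrix in log2 units (27036 genes), which the authors made in limma 3.38 per the labels. Per the file headers the scanner output is 1-colour Agilent Feature Extraction data with a mean intensity, a median local background, a processed intensity and marks for outlier, saturated and well above background spots. Group, sex and mother came from the labels, and probe positions (mm9) and gene names from the scanner output. On each array, limma 3.58.1 (R 4.3.3) corrected the 62976 mean intensities by normexp with an offset of 50. Outlier (65 to 205 per array) and control spots were left out, and log2 values were quantile normalized. Replicate spots were averaged into 56605 probes, of which 56366 exceeded the 5% quantile of an array at least 4 times and were averaged by gene name. Values are therefore pulled toward no difference where a gene has probes near background.

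Delivery mode and sex were fixed effects and the mother a random effect through duplicateCorrelation (consensus correlation 0.0152), with eBayes and Benjamini-Hochberg adjustment over all 36711 genes at 0.05. Litters were compared in a limma fit with 4 litter terms and sex. The delivery fit was tried, with and without the mother, on a simulated data set without litter effects. There the fit with the mother as a random effect called more false genes than its threshold allows. The share in that data set does not give the rate to be expected. The sex, interaction and litter fits were not simulated. The sources used here do not say whether littermates' RNA was processed together. Array number and litter number limit the precision.

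The 10 genes, the 14 gene lists and the tests were chosen with earlier results of these data known. The text names all 10 genes, in each list the called genes or otherwise those with the 2 smallest p, and the 15 genes most alike in pattern. Genes above background on no array are named as well, as is the gene of highest intensity in each cell type list, which depends on the probe and does not rank abundance. Promoters (GRCm38.p6) were from RefSeq, and probe sequences from the scanner output. Plots were drawn with matplotlib 3.10.9. The alternatives are given in the closing section.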

Additional observations from a re-analysis of the deposited data

Results flagged for a closer look

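No result was picked out by the fixed rules for a closer look. In the 20 sets of 8 pups (each of the 10 class II genes in each delivery mode), 0 had a highest or lowest pup whose gap to the next one, as a share of the range, exceeded Dixon's critical value, and no class II gene passed the delivery by sex interaction after adjustment in limma.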

How the results depend on the processing

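Under 38 alternatives, the difference between delivery modes of the 10 class II genes kept its direction and its side of the threshold in 372 of 380 cases. In 7 cases a gene passed the threshold: H2-Oa and Cd74 without sex in the model (2 genes in all), Cd74 without VD 7, and H2-Ab1, H2-Oa, Cd74 and Ciita without the litter of mother 6 (4 genes). In 1 case the direction turned, with H2-Eb1 at -0.43 among males. Leaving out 1 pup at a time gave 0 to 1 called members. With an unadjusted p under 0.05, the count of members lower in CSD pups was 4 to 9 when 1 pup was left out, 2 among males, 3 within slide 1, 3 within slide 2 and 1 without the litter of mother 5. The cause of these changes was not tested. For sex, the interaction and the litters, 0 members were called under every alternative that could be fitted. Sex terms were left out of the fits among males, with litter means, without sex and with the replicate block, the interaction could not be fitted without the litter of mother 5, and litter contrasts could not be fitted with litter means or without a litter concerned. Over the alternatives the difference ran from -0.70 to -0.33 for H2-Aa, -0.63 to -0.16 for H2-Ab1, -0.43 to 1.52 for H2-Eb1, -0.34 to -0.01 for H2-DMa, -0.64 to -0.17 for H2-DMb1, -0.69 to -0.08 for H2-DMb2, -0.92 to -0.44 for H2-Oa, -0.41 to -0.07 for H2-Ob, -0.64 to -0.39 for Cd74 and -0.48 to -0.12 for Ciita. Their adjusted p in limma ran from 0.0159 (H2-Oa) to 0.968 (H2-DMa). Among all genes, between 0 (males, slide 2, litter means and the replicate block) and 2265 (without the litter of mother 6) were called, against 460. The total was 102 at a normexp offset of 0, 170 in the deposited matrix and 992 without sex, and it ran from 145 to 617 when 1 pup was left out. The calls of Crebbp, Pdia3 and Slc2a6 were lost in 15, 11 and 27 of the 38 alternatives, the replicate block and litter means among them, and none turned direction. With H2-Eb1 left out of the score, 6 of the 15 genes most alike in pattern were shared. The numbers in the titles did not pair the pups: deviations of same-numbered pups correlated at -0.069 to 0.273. Only the numbers 5 to 9 occur in both groups, so only those pups inform the difference with the number as a replicate block. That fit held neither sex nor mother and called 0 of all genes, so its 0 called members say little. In it 6 members were lower with an unadjusted p under 0.05 in limma. The calls of Crebbp, Pdia3 and Slc2a6 were lost (adjusted p = 0.375, 0.252 and 0.304).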
